A study of Homo sapiens with 4 samples.

Results

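MTAP, CDKN2A, CDKN2B and DMRTA1 are the 4 neighbouring protein-coding genes that carry the tumour suppressor locus at chromosome band 9p21, out of 20098 protein-coding genes on the autosomes and the X chromosome. They were selected because no library had a peak around CDKN2A and CDKN2B, so the absence of peaks there is a description of how the genes were chosen and carries no test. The peaks of all 4 libraries on chromosome 9 from 21000000 to 23000000 of hg19 were taken, and this interval held the starts of 22 protein-coding genes, of which 16 are interferon genes, and of 10 long non-coding RNA (lncRNA) genes.

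Open chromatin had been mapped by ATAC-seq, in which a transposase inserts sequencing adapters into accessible DNA, in MCF10A cells before and after transformation by HRAS. MCF10A is a line of breast epithelial cells that divides without limit in culture but does not form tumours. The parental cells (MCF10A, 2 replicates) were compared with cells given the HRas G12V oncogene by lentivirus and selected with hygromycin (G12V, 2 replicates). The G12V cells had also received a GFP vector to follow transduction, and no such vector is described for the parental cells. Both were grown in DMEM/F12 with cholera toxin, EGF, insulin, hydrocortisone and horse serum. All 4 libraries thus come from 1 cell line, and the study calls the replicates biological.

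CDKN2A encodes p16INK4A, which inhibits the cyclin D kinases CDK4 and CDK6 and so holds the retinoblastoma protein active. From a separate first exon it also encodes p14ARF, which inhibits MDM2. CDKN2B encodes p15INK4B, a close relative of p16INK4A, and the lncRNA CDKN2B-AS1 (ANRIL) runs in the opposite direction across the same stretch. MTAP, an enzyme of methionine salvage, and DMRTA1, a transcription factor of the DMRT family, flank them, and the locus is often deleted in tumours and in immortalized lines. MCF10A is commonly described as lacking CDKN2A. A peak list alone cannot tell missing DNA from closed chromatin, and the number of copies of the locus in these cells was not tested.

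The 4 lists differed in length more between replicates than between cell types. MCF10A replicate 1 held 12902 peaks and G12V replicate 1 held 14057, against 34484 in MCF10A replicate 2 and 46698 in G12V replicate 2. The read depth behind each list is unknown, so the absence of a peak says less in the short replicate 1 lists than in the replicate 2 lists. A promoter is counted here as the 1000 bp before to the 500 bp after a gene's canonical start. A peak only at another start of a gene, as could be for a marker, is thus missed. Of 6 basal epithelial markers 3, 2, 0 and 1 had a promoter peak in MCF10A replicates 1 and 2 and G12V replicates 1 and 2, and KRT5, KRT14 and TP63 had none in any. Of 4 general epithelial markers 0, 2, 0 and 0 had one, and CDH1 and KRT18 had none in any. In any list this is 3 of 6 and 2 of 4, near the 53.1% of all protein-coding genes, and ITGB4, a basal marker, had a peak in both MCF10A lists and neither G12V list. Of 6 markers of blood, endothelial, muscle and liver cells, 0 had one.

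No list had a peak between chr9:21855240 and chr9:22158969, a stretch of 304 kb that held the canonical starts of CDKN2A and CDKN2B, the starts of 4 lncRNA genes and 21 annotated starts of protein-coding transcripts. Both of its ends were set by G12V replicate 2. The left end was a peak at chr9:21854525-21855239, over an exon of MTAP and 52.6 kb downstream of the MTAP start. Its MACS score was 109.74, where the score is -10 times the log10 of the p-value and 40 is the lowest score in any list. The right end was a peak at chr9:22158970-22159387 in intergenic DNA, 150 kb from the start of CDKN2B, with a score of 53.29. The left peak ranked at the 70.4th percentile of its list by score and the right peak at the 28.7th.

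The stretch was longer in each of the other lists. In MCF10A replicate 1 it ran from chr9:20684436 to chr9:23826277, which is 3142 kb and takes in 23 protein-coding starts. It was 609 kb in MCF10A replicate 2 and 1989 kb in G12V replicate 1. The left end was nearly the same in MCF10A replicate 2 and G12V replicate 1, at chr9:21837219 and chr9:21836979, because both lists held the same intronic MTAP peak as their last before CDKN2A. The right end was not shared, since it lay at the DMRTA1 promoter in MCF10A replicate 2 and beyond the interval, at the ELAVL2 promoter, in G12V replicate 1. When a peak in at least 2 lists was required to end it, the stretch was 609 kb.

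**Figure D1:**
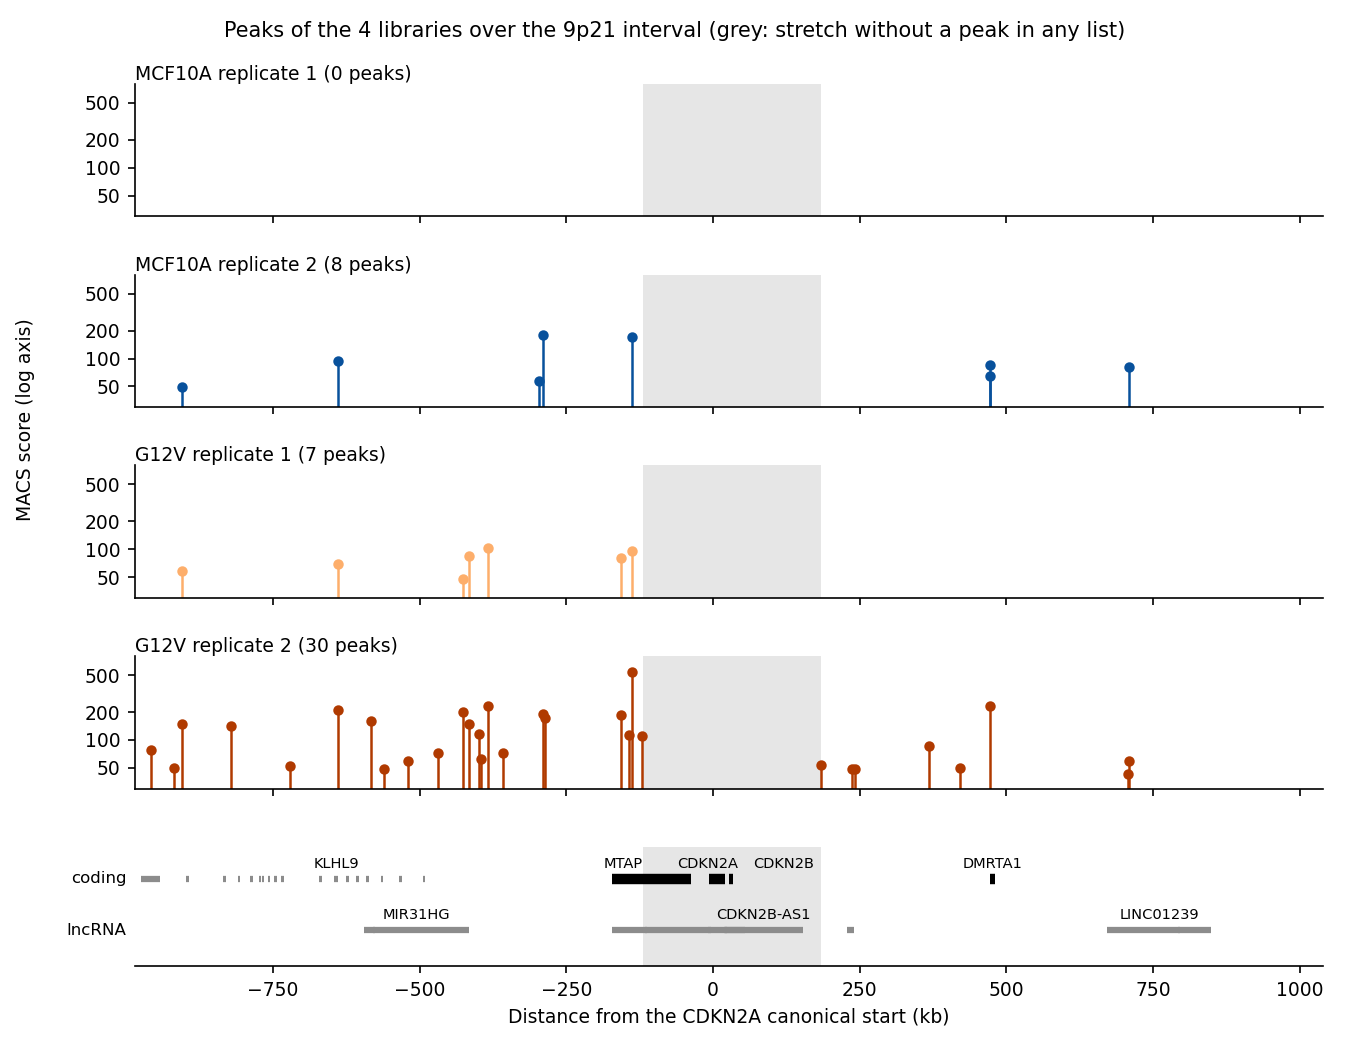
Each stem is 1 peak, placed by its centre in kb from the CDKN2A canonical start and drawn to its MACS score on a log axis, with 1 panel per library and the annotated genes below (black, the 4 genes described). The lists hold 0, 8, 7 and 30 peaks from top to bottom, and none lies in the grey stretch of 304 kb around CDKN2A and CDKN2B.

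Reads had been kept only where they aligned to 1 place, so sequence that occurs more than once in the genome could look empty. In the stretch 94.1% of 51-base windows occurred once in the genome, against 93.5% to its left and 93.7% to its right within the interval. GC content was 39.1% in the stretch, 38.0% on the left and 36.3% on the right. No base of the stretch was unresolved. The peaks of each list were also numbered by the authors without a break across it.

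CDKN2A (ENSG00000147889, chr9:21967751-21995300, minus strand) had 0 peaks in its body and 0 at its promoter in each of the 4 lists. The canonical start, from which p16INK4A is made, lies at 21974856, and its nearest peak was 1290 kb away in MCF10A replicate 1, 138 kb in MCF10A replicate 2, 138 kb in G12V replicate 1 and 120 kb in G12V replicate 2. The start of the ARF transcript, at 21994391, had its nearest peak at 1310, 157, 157 and 139 kb in the same order. CDKN2B (ENSG00000147883, chr9:22002902-22009304, minus strand) likewise had none in its body or promoter, and its start lay 1325, 172, 172 and 150 kb from the nearest peak. That no list had a peak at these starts follows from how the genes were chosen, so it is not read as agreement between replicates or cell types.

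The 200 bp before each start are shown from the hg19 sequence, read in the direction of transcription, because these are the promoters at which no peak was called. Capitals mark CG dinucleotides.
CDKN2A (p16INK4A), chr9:21974857-21975056, minus strand: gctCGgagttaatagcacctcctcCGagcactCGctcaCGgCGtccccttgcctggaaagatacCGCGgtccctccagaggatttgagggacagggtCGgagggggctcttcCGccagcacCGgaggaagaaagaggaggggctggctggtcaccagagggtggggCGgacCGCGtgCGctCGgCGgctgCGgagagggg
CDKN2A (ARF), chr9:21994392-21994591, minus strand: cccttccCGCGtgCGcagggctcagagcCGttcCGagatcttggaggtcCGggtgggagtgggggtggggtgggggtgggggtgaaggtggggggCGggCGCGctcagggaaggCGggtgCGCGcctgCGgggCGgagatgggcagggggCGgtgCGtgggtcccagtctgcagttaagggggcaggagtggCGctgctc
CDKN2B, chr9:22009305-22009504, minus strand: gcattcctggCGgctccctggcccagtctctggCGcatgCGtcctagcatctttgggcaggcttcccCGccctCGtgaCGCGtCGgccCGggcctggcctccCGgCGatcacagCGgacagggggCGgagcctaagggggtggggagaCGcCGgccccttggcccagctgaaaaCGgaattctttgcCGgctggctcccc
Each of these windows held 17 CG dinucleotides, against a median of 15 over the 20098 protein-coding starts, so these promoters were slightly above the middle in CG. Their GC content was 67.5%, 74.0% and 70.5%.

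MTAP (ENSG00000099810, chr9:21802635-21937650, plus strand) had no promoter peak in any list either, but peaks were called within the gene. It held 0 peaks in MCF10A replicate 1, 1 in MCF10A replicate 2, 2 in G12V replicate 1 and 4 in G12V replicate 2. The peak shared by 3 lists, at chr9:21836414-21837218, scored 170.79 in MCF10A replicate 2, 96.79 in G12V replicate 1 and 537.39 in G12V replicate 2. The last of these was at the 98.9th percentile of its list, the highest rank of any peak in the interval. A second intronic peak, at chr9:21817150-21817785, scored 81.03 and 186.49 in the G12V replicates and was absent from both MCF10A lists. G12V replicate 2 also had an intronic peak at chr9:21831813-21832508, with a score of 112.33, and the exonic peak at the end of the stretch. Of the canonical MTAP transcript, which ends at 21867080, the last 11.8 kb (18.4%) lay in the peak-free stretch. Over the whole annotated gene, whose longer transcripts reach further toward CDKN2A, the share was 61.0%.

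DMRTA1 (ENSG00000176399, chr9:22446823-22455739, plus strand) was the only 1 of the 4 genes with a promoter peak. It was present in both replicate 2 lists and in neither replicate 1 list. MCF10A replicate 2 had a pair of peaks there, at chr9:22446637-22447170 with a score of 85.62 and at chr9:22447438-22447959 with a score of 64.83. G12V replicate 2 had a single peak at chr9:22446574-22447697 with a score of 230.80. It was thus found in the longer list of each cell type and in the shorter list of neither. When every list was reduced to its best 12888 peaks, it remained in G12V replicate 2 alone.

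The promoters of the flanking genes are shown in the same way, to set beside those of the stretch.
MTAP, chr9:21802435-21802634, plus strand: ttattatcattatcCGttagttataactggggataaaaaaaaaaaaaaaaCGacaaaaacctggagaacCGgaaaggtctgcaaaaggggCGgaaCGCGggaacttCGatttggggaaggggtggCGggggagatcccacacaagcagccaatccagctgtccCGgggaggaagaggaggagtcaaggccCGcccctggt
DMRTA1, chr9:22446623-22446822, plus strand: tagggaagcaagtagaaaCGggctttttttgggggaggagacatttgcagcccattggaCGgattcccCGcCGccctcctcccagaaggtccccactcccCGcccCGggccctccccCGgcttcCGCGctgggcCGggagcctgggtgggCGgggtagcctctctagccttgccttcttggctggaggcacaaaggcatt
The DMRTA1 window, which lay within the G12V replicate 2 peak, held 11 CG dinucleotides and the MTAP window 10, both fewer than the 17 at CDKN2A and CDKN2B.

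Thus 0 of 4 genes had a promoter peak in MCF10A replicate 1, 1 of 4 in MCF10A replicate 2, 0 of 4 in G12V replicate 1 and 1 of 4 in G12V replicate 2. Over all 20098 protein-coding genes the shares were 22.2%, 44.5%, 24.2% and 47.0%, and 53.1% had one in any list. With 4 genes selected for lacking peaks, nothing is read from these counts.

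The share of promoters with a peak rose with the number of CG dinucleotides up to about decile 6 of all genes and was level or lower above it, so each member was set beside genes of the same decile of all promoters by CG number. MTAP (89 CG in the promoter window), CDKN2A (84) and CDKN2B (82) fell in decile 6, DMRTA1 (72) in decile 5 and the ARF start (132) in decile 9. In decile 6, 33.0%, 62.6%, 36.8% and 64.8% of genes had a promoter peak in the 4 lists, and 560 of 1988 genes (28.2%) had none in any. An empty promoter was thus common among such genes. The 51-base windows of the 5 promoters were unique in 99.1% to 100% of places.

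**Figure D2:**
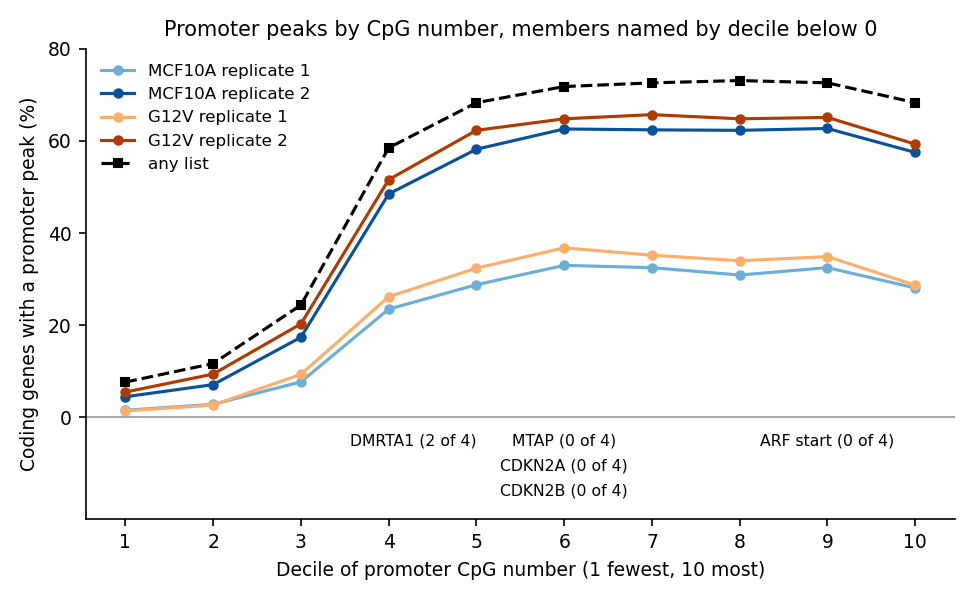
The share of protein-coding genes with a promoter peak (%) is plotted for deciles of genes by promoter CG number, with a line for each list and a dashed line for any list. Members are named under their decile with the number of lists that had a peak at their promoter, and only DMRTA1, with 2 of 4, had any.

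The distance to the nearest peak set CDKN2A and CDKN2B further apart from other genes than the empty promoter did. With all 4 lists together, the median distance from a protein-coding start to a peak was 0.123 kb, against 120 kb for CDKN2A and 150 kb for CDKN2B. Of the 1988 starts of decile 6, 28 (1.41%) were at least as far from a peak as that of CDKN2A and 18 (0.905%) as that of CDKN2B. The MTAP start was 14.5 kb from a peak, and 15.6% of the same starts were as far. List by list, as far a distance as that of CDKN2A was found for 0.252% of these starts in MCF10A replicate 1, 3.92% in MCF10A replicate 2, 19.2% in G12V replicate 1 and 2.72% in G12V replicate 2. These shares describe genes chosen for their distance from peaks and are not tests.

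Across the whole interval MCF10A replicate 1 had 0 peaks, MCF10A replicate 2 had 8, G12V replicate 1 had 7 and G12V replicate 2 had 30. This is 0, 4, 3.50 and 15 peaks per Mb, beside 3.34, 9.01, 3.87 and 13.7 over chromosome 9. The MCF10A lists were thus below their chromosome, and the G12V lists close to it. The peaks merged into 31 regions, of which 23 lay to the left of the stretch and 8 to the right. None was in all 4 lists, 3 were in 3 lists, 7 in 2 and 21 in 1. Of the last, 20 were in G12V replicate 2 only, or 64.5% of the regions, against 34.6% of the 60886 regions of the genome.

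The peaks found in G12V replicate 2 alone scored from 43.28 to 173.18. The highest of them lay in intergenic DNA upstream of MTAP, at chr9:21688023-21689387. A neighbouring region at chr9:21684870-21685595 was in both replicate 2 lists, with scores of 179.76 in MCF10A and 191.98 in G12V. Near IFNB1, the interferon beta gene, a region at chr9:21070159-21070893 was in 3 lists and scored 49.86 in MCF10A replicate 2, 57.99 in G12V replicate 1 and 148.85 in G12V replicate 2. Beyond DMRTA1, a region in an intron of the lncRNA LINC01239 at chr9:22683744-22684099 was in both replicate 2 lists, with scores of 80.32 in MCF10A and 59.08 in G12V. The single peak found in MCF10A replicate 2 alone, at chr9:21677836-21678161, scored 56.73. Right of the stretch no peak was in either replicate 1 list.

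A region with a peak in both G12V lists and in neither MCF10A list was counted as gained, and the reverse as lost. In the interval 4 of 31 regions (12.9%) were gained and 0 were lost, beside 3.20% gained and 2.14% lost over the genome. No region of the interval could be called lost, since MCF10A replicate 1 had no peak there, so the 0 carries no information. All of the gained regions lay to the left of the stretch, from MIR31HG to MTAP. They were at chr9:21548927-21550264 in an intron of MIR31HG, at chr9:21559242-21560322 over the MIR31HG promoter, at chr9:21591323-21592377 in intergenic DNA and at the intronic MTAP site given above. MIR31HG is the lncRNA host gene of the microRNA miR-31. Its promoter peak scored 85.50 in G12V replicate 1 and 149.67 in G12V replicate 2. The intergenic peak scored 102.07 and 231.14.

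Because the MCF10A replicate 1 list held no peak in the interval, the call of gained regions rested on MCF10A replicate 2 on that side. Without G12V replicate 1, 24 regions would be called gained, since most were in G12V replicate 2 alone, and without MCF10A replicate 2, 7. Within replicate 1 there were 7 regions with a peak in G12V only and 0 in MCF10A only. Within replicate 2 there were 24 and 1. With 2 lists against 2 no 2-sided exact permutation test can give a p-value below 0.333, and none was made.

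Central 200 bp windows are shown from hg19 for the shared and gained MTAP regions, the gained intergenic region and the right end. Capitals mark matches to an AP-1 motif (TGANTCA), a TEAD motif (GGAATG), a grainyhead motif (AACCNGTT) or the CTCF motif with at most 1 mismatch, searched on both strands.
MTAP intron, 3 lists, chr9:21836707-21836906, plus strand: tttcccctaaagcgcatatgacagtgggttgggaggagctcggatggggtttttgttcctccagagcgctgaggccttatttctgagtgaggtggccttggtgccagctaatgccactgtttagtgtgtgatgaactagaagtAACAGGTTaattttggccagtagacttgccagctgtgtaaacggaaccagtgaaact
MTAP intron, gained, chr9:21817368-21817567, plus strand: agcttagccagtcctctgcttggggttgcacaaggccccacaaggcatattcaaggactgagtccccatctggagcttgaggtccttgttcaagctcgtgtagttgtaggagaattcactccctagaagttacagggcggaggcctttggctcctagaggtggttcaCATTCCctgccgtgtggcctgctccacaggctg
Intergenic, gained, chr9:21591750-21591949, plus strand: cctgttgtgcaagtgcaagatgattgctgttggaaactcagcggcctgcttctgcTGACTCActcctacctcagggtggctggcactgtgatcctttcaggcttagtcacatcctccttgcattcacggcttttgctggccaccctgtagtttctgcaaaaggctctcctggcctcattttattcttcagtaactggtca
Right end of the stretch, chr9:22159079-22159278, plus strand: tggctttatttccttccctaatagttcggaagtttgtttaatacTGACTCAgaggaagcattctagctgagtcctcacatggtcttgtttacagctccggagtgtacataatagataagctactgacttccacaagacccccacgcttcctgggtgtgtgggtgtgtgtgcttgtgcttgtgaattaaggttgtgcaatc
The first held a grainyhead match, the second a TEAD match, and each of the others an AP-1 match. The central windows of the gained MIR31HG regions, not among those shown, held no match, and 16 of the 31 windows held none. An AP-1 match was found in 11 of the 31 windows (35.5%), against 26.3% of windows of the same length over all regions, and of the 11, 5 were left of the stretch and 6 right. TEAD was matched in 3 (9.68%, against 14.2%), grainyhead in 1 (3.23%, against 1.18%) and CTCF in 0 (against 8.68%). Of the 4 gained regions 1 had an AP-1 match and 2 had no match to any motif.

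The MIR31HG promoter, gained in both G12V lists, is shown for comparison with the empty CDKN2A promoters, with CG dinucleotides in capitals.
MIR31HG, chr9:21559849-21560048, minus strand: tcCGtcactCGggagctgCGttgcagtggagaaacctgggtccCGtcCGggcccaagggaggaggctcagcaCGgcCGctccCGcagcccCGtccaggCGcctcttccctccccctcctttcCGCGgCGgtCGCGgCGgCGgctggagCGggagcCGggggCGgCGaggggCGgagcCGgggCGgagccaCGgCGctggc
It held 26 CG dinucleotides, and 86.4% of protein-coding starts had no more.

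Other genes of the interval were also mostly without a promoter peak. KLHL9, a substrate adaptor of a ubiquitin ligase, had one in 3 lists, with scores of 93.66 in MCF10A replicate 2, 69.36 in G12V replicate 1 and 208.13 in G12V replicate 2. With DMRTA1 this makes 2 of 22 protein-coding genes, and of 10 lncRNA genes MIR31HG was the only 1. CDKN2B-AS1 (139 CG in its promoter) had none. The 16 interferon genes had none. Their promoters held only 4 to 16 CG and fell in deciles 1 and 2 by CG number. In these deciles 92.3% and 88.3% of all genes had no promoter peak in any list, so nothing is read from this count. At IFNA10 only 61.2% of the 51-base windows of the promoter were unique, so some of these promoters could be read in part only. Further out on either side, FOCAD (start at 20684258) and ELAVL2 (start at 23826238) had promoter peaks in all 4 lists. The MCF10A replicate 1 list was thus empty past both borders of the interval, over 3142 kb, but held peaks beyond that. The ELAVL2 peak scored 84.77, 110.04, 152.07 and 243.16.

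To ask whether the locus held fewer peaks than its gene content would give, it was set beside gene-matched intervals. The run of 4 genes from MTAP to DMRTA1 spans 653 kb, and 6283 other runs of 4 consecutive protein-coding genes were 0.5 to 2.0 times as long. The member run had 0, 3, 2 and 10 peaks in the 4 lists, against medians of 2, 8, 3 and 10. No more peaks than this were found in 13.4%, 15.3%, 45.1% and 50.5% of matched runs. Over the 4 lists together the run had 15 peaks and the median was 24, and 27.5% of matched runs had no more. Both MCF10A lists and G12V replicate 1 were thus below the median and G12V replicate 2 was at it, and the run as a whole was within the common range, with all of its peaks in the flanks of the stretch. Neighbouring runs share genes and are not independent.

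**Figure D3:**
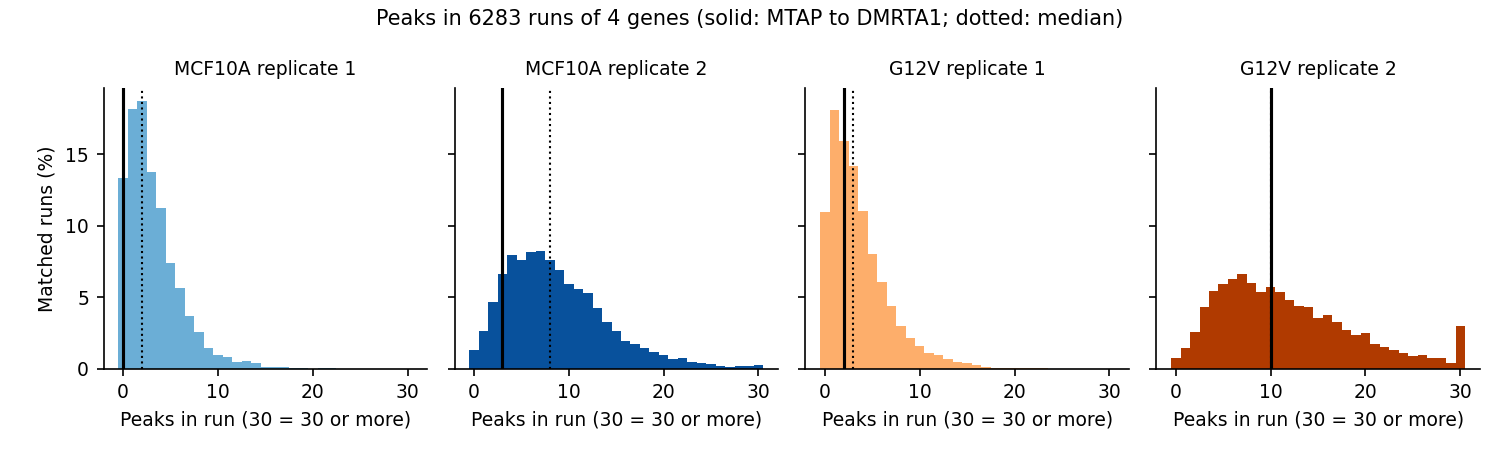
Histograms give the share of 6283 matched runs (%) by the number of peaks in the run, with 1 panel per list. The solid line is the run from MTAP to DMRTA1, at 0, 3, 2 and 10 peaks, and the dotted line is the median, which coincides with it in G12V replicate 2.

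The interval was also compared with 69 tiles of 2 Mb whose number of protein-coding starts was within 2 of its 22. MCF10A replicate 2 had fewer peaks in the interval (8) than in any of these tiles, whose lowest value was 10 and median 28. In MCF10A replicate 1, 1 tile (1.45%) had no more. In G12V replicate 1 it was 28 tiles (40.6%) and in G12V replicate 2, 22 (31.9%). The tile medians were 9 in MCF10A replicate 1, 9 in G12V replicate 1 and 35 in G12V replicate 2, so the interval was below the median in all 4 lists. In equal lists of the best 12888 peaks the interval held 0 and 3 peaks in MCF10A and 7 and 12 in G12V, and the difference between the cell types was not tested. The sum over lists was 45, the median of the tiles was 83, and 6 tiles (8.70%) had no more. This share was not stable: it was 29.0% in the equal lists, 34.8% in the better-scoring 50% of each list, 30.8% with 1 Mb tiles, 24.6% when MCF10A replicate 2 was left out, 17.4% when MCF10A replicate 1 was and 2.90% when G12V replicate 2 was. Many of the interval's starts belong to the interferon genes, whose promoters had no peak.

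Along the short arm, 19 tiles of 2 Mb held 48 gained and 7 lost regions in all, and gained outnumbered lost along much of the arm. Gained regions also outnumbered lost ones over the genome, with 1951 (3.20%) against 1303 (2.14%) of 60886 regions. The share of the arm's regions that were gained was not computed. The median tile had 5, 17, 10 and 36 peaks in the 4 lists. In the tile that follows the interval the lists had 2, 5, 1 and 2 peaks. In G12V replicate 2 that is far below the 30 of the interval itself. The 2 tiles are not matched by gene content, since the next tile held 2 protein-coding starts and the interval 22.

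**Figure D4:**
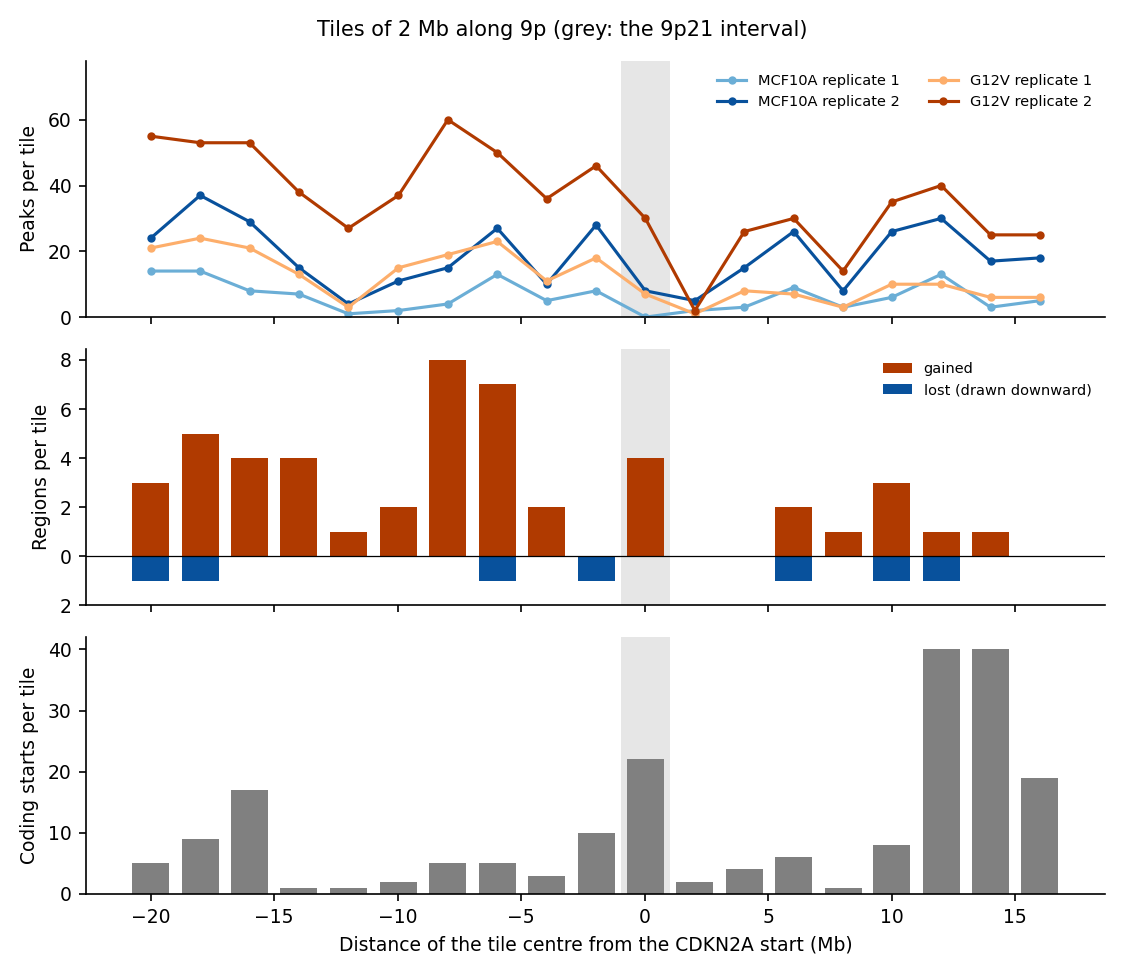
For each 2 Mb tile, by its distance in Mb from the CDKN2A start, the upper panel gives peaks per list, the middle panel gained regions (upward) and lost regions (downward), and the lower panel protein-coding starts. The interval (grey) has 0, 8, 7 and 30 peaks and 4 gained regions, and the next tile has at most 5 peaks in any list.

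The stretch at CDKN2A was not the only long one. Among 55833 stretches of at least 1 kb between neighbouring peaks of any list, the median length was 26.9 kb, and 673 (1.21%) were as long as that at CDKN2A or longer. Of these, 431 held no protein-coding start and 125 held at least 2. The stretch at CDKN2A had 6.58 starts per Mb, near the 6.62 of the genome, while stretches as long had 2.59 on average. A comparison added after these values were seen counted promoters with at least 80 CG, the median of all genes, and 34 stretches as long, that at CDKN2A included, held at least 2 such starts. Others thus matched it in length and in CpG-rich starts. The one with the most, 321 kb on chromosome 17, held 17 protein-coding starts, 8 of them CpG-rich, with EZH1 and BECN1 among its genes. Another on chromosome 17, of 337 kb with MED1, CDK12 and ERBB2 among its genes, held 5 CpG-rich starts. The stretches were not matched for unique sequence. In the stretch at CDKN2A 94.1% of windows were unique, and this share was not computed for the other stretches. Reads had been kept only where they aligned to 1 place, so repeated sequence could lengthen some of them. How many stretches as long are also as unique was not tested.

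**Figure D5:**
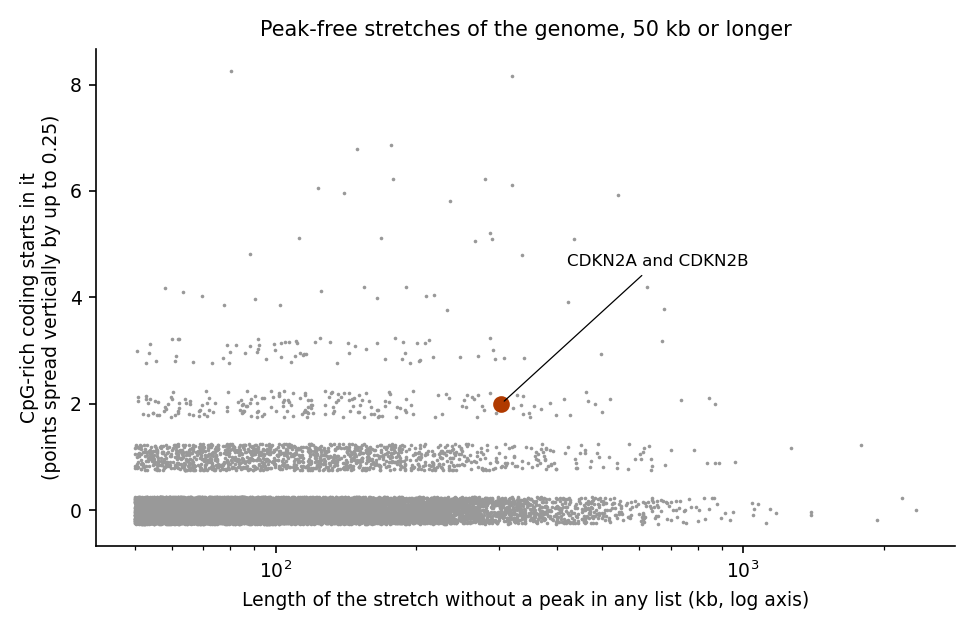
Each point is a stretch of at least 50 kb without a peak in any list, with its length in kb on a log axis and the number of CpG-rich protein-coding starts it holds. The stretch at CDKN2A and CDKN2B (304 kb, 2 starts) lies toward the long end but is exceeded in both by others. The stretches were not matched for unique sequence.

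Genes that act with the members are given by the same count, against the shares of all genes above. Each of the 5 other CDK inhibitors had a promoter peak in at least 1 list. CDKN2C, CDKN2D and CDKN1B had one in both replicate 2 lists, CDKN1A (p21) in G12V replicate 2 only and CDKN1C in MCF10A replicate 1 only. Of 11 genes of the cyclin D and RB axis, 2, 8, 2 and 7 had a promoter peak in the 4 lists. E2F3, an activating E2F factor, had one in every list, and CCND1 (cyclin D1), RBL1 and E2F2 had none. Of 4 genes of the ARF and MDM2 arm 1, 3, 1 and 3 had one, with NPM1 in every list and the ubiquitin ligase HUWE1 in none.

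The list for methionine salvage and the PRMT5 complex, which the substrate of MTAP inhibits, also held the related genes AMD1, SRM, SMS and MAT2A. Each of its genes had a promoter peak in at least 1 library. Of the 12 genes 6, 12, 7 and 11 had a promoter peak, and ENOPH1, ADI1, GOT1, PRMT5 and RIOK1 had one in every list. MTAP itself, which starts the salvage pathway, had none at its canonical start. It belongs to a locus chosen for lacking peaks, so nothing is read from this contrast. Of 6 other DMRT genes only DMRT2 had one, in 3 lists. Of 8 Polycomb genes, whose products keep CDKN2A silent in many cells, 2, 4, 2 and 4 had one, with RNF2 in every list and SUZ12, BMI1, CBX7 and RING1 in none. None of the pathway lists held a promoter gained or lost between the cell types. Over the genome only 3.20% of regions were gained and 2.14% lost, and the share of all promoters was not computed. Nothing is therefore read from this absence.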

How the data were processed

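Peak lists of 4 ATAC-seq libraries were used. By the study's account, Bowtie alignments with 1 position were kept, read starts were shifted to where the transposase had been centred, and the authors called peaks with MACS (--tsize=51, --shiftsize=75, --llocal=25000, p-value 0.0001). The submitters' processing notes name hg19. The deposited lists hold 1 score per peak, called by library, although the study pooled replicates for its own calls. Read counts were not analysed here, so the depth is unknown.

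Peaks on the autosomes and X were joined where they overlapped by at least 1 bp. Genes came from GENCODE v44lift37 and sequences from GRCh37, which matches the files' build, and 1 canonical start was used per gene. Promoters reached 1000 bp upstream and 500 bp downstream. Matched runs held 4 consecutive protein-coding genes, and matched intervals had at most 1.0% unresolved bases. Named genes were the members, every gene of the interval, its neighbours and lists of related genes, of which the endothelial marker PECAM1 was not matched by name. Members and lists were chosen with earlier results of these data known, and no test was made. The distances to the nearest peak, the motif search and the count of CpG-rich stretches were added after the data were seen. Alternatives used the better-scoring 50% of each list, equal lists of 12888 peaks, each library left out and other definitions of starts, runs and tiles. Scripts ran in Python 3.11.15 with NumPy 2.4.6, numba 0.67.0 and matplotlib 3.10.9, and were tested on simulated data.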

Additional observations from a re-analysis of the deposited data

How the results depend on the processing

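No result here comes from a test, so the pairing by replicate number was used for counts only. Taking the replicate number as a block, by replicate pairs, gave 7 gained and 0 lost regions in replicate 1 and 24 gained and 1 lost in replicate 2. A peak in either replicate gave 24 and 1. With 1 library left out, gained regions ranged from 4 to 24 (the highest without G12V replicate 1, and 7 without MCF10A replicate 2) and lost regions from 0 to 1 (1 without MCF10A replicate 1). The share of matched runs with no more peaks ranged from 13.9% to 37.3% and that of 2 Mb tiles from 2.90% to 24.6%, with both lowest values when G12V replicate 2 was left out and both highest when MCF10A replicate 2 was. Without MCF10A replicate 1 the tiles came to 17.4%. The stretch ranged from 304 to 609 kb, the longest without G12V replicate 2. In the better-scoring 50% of each list the shares were 43.0% of runs and 34.8% of tiles, with 5 peaks in MCF10A replicate 2, 17 in G12V replicate 2 and a stretch of 487 kb. In equal lists, 29.0% of tiles had no more peaks, MCF10A replicate 2 had 3 peaks, G12V replicate 2 had 12 and the stretch was 609 kb. Runs of a closer length gave 19.9%, peaks away from promoters 40.2%, and 1 Mb tiles 30.8%. Counting all transcripts put 21 starts in the stretch, and adding lncRNA genes put 6. With any transcript start, 2 members had a promoter peak, the second being MTAP through a transcript whose annotated start is incomplete. The cause was not tested. The unknown depth limits what an absent peak shows, in the replicate 1 lists above all.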
